A study of Mus musculus with 2 samples.

Results

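The 9 genes described here, of 32227 in the count tables, encode the WNK-SPAK kinase pathway: the WNK kinases Wnk1, Wnk4 and Wnk3, the kinases SPAK (Stk39) and OSR1 (Oxsr1), their scaffold MO25 (Cab39), the ubiquitin ligase parts KLHL3 (Klhl3) and CUL3 (Cul3), and the cotransporter NKCC2 (Slc12a1). They were chosen by name as members of the pathway, with earlier results of these data known. They were measured by single-nucleus RNA sequencing in 2 libraries of sorted kidney nuclei, 1 from the cortex, taken as a superficial strip, and 1 from the remaining tissue, labelled medulla. Both came from B6 male mice with the genotype given as WT and the age as 12, with no unit. In these NKCC2-INTACT mice a tamoxifen-inducible Cre under the Slc12a1 gene switches on a nuclear envelope protein fused to GFP, so that nuclei of the thick ascending limb (TAL) can be sorted by fluorescence. All mice had received tamoxifen, there was no untreated group, and the number of mice behind each library is not given in the sources used here.

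With 1 library per region there is no replicate, so no test between regions or classes was made and region and library cannot be told apart. Intervals are 95% intervals that cover counting error only. A ratio of 1.5-fold or more is called past the fold, and beside each count of members the share of all genes past the same fold is given. The RNA is nuclear, and nothing here measures kinase protein or phosphorylation.

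WNK kinases sense chloride and potassium and phosphorylate SPAK and OSR1, which in turn phosphorylate and activate the sodium-chloride cotransporters, NKCC2 in the TAL and NCC in the distal convoluted tubule (DCT). MO25 binds SPAK and OSR1 and raises their activity. KLHL3 is the adaptor that brings WNK kinases to a CUL3 ubiquitin ligase for degradation, and mutations in WNK1, WNK4, KLHL3 or CUL3 cause familial hyperkalaemic hypertension. In the distal nephron Wnk1 is also transcribed from an internal promoter into a kidney-specific form that lacks most of the kinase domain. The counts are per gene, so the forms of Wnk1 cannot be separated here.

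Nuclei were placed in classes by raw counts. A nucleus needed at least 10 Slc12a1 counts to be a TAL nucleus. It was a macula densa (MD) nucleus with at least 3 counts of Nos1 plus Pappa2, otherwise TAL-β with at least 2 counts of Tmem52b, otherwise TAL-γ with at least 2 counts of Tmem207 plus Gpc5, and otherwise TAL-α. Nuclei with at least 5 counts of Slc12a3, which encodes NCC, were set apart first as DCT nuclei. In cortex this gave 2813 TAL-α, 1461 TAL-β, 248 TAL-γ, 649 MD and 92 DCT nuclei of 5442. In medulla it gave 3775 TAL-α, 566 TAL-β, 3542 TAL-γ, 78 MD and 15 DCT nuclei of 8121. The median depth was 2427 counts per nucleus in cortex and 2430 in medulla, and no barcode was called in both filtered matrices. Per MD nucleus the median depth was lower, 1880 and 1995.5 counts.

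The classes are ranges of counts and not cell types with sharp borders. Of the TAL-α nuclei, 590 in cortex and 815 in medulla lay 1 count below one of the thresholds, and 323 and 204 TAL-β nuclei lay exactly at theirs. Marker genes that the rule did not use followed the class names with 1 exception. The TAL-α, TAL-β, TAL-γ and MD lists came from the study's own results for these libraries, so they are not an independent check. The TAL-α list (Cldn10, Ptger3, Cacnb2, Robo3) summed to 1988 CPM (counts per 1000000 counts of the class) in cortical TAL-α against 367 in TAL-β, with medians of 5 and 0 counts per nucleus. The TAL-β list (Cldn16, Kcnj10, Pth1r, Casr) summed to 2271 CPM in cortical TAL-β against 1254 in TAL-α. The MD list (Robo2, Ndst4, Bmp3, Tshr, Sncaip) reached 7199 CPM in cortical MD nuclei and at most 670 CPM in the other cortical classes. The exception was the cortical TAL-γ class. There the TAL-γ list (Kcnj10, Cldn10, Ano4, Kcnt1) stood at 439 CPM, against 1210 CPM in medullary TAL-γ. This was above cortical TAL-α (274 CPM) and TAL-β (292 CPM), but the TAL-β list stood at 1900 CPM in the same nuclei. These 248 nuclei are therefore called cortical nuclei over the TAL-γ threshold.

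Counts of proximal tubule genes were present throughout. The 6 genes of that list summed to 2279 CPM in cortical TAL-α, 2738 CPM in TAL-β, 3139 CPM in nuclei over the TAL-γ threshold, 1554 CPM in MD and 3772 CPM in DCT, and to between 323 and 537 CPM in the 4 medullary TAL classes. At least 3 such counts were found in 13.9% of cortical TAL-α and 19.1% of cortical TAL-β nuclei. The ratios were also computed without such nuclei. Markers of endothelium, stroma, collecting duct and immune cells each summed to at most 135 CPM in every TAL class, and to at most 251 CPM in DCT.

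On GRCm39, Wnk1 lies on the minus strand of chromosome 6 (chr6:119900930-120015660), Wnk4 on the plus strand of chromosome 11 (chr11:101151246-101168235), Stk39 on the minus strand of chromosome 2 (chr2:68040789-68302723) and Klhl3 on the minus strand of chromosome 13 (chr13:58148042-58261469). The GENCODE annotation gives Wnk1 29 transcripts with 23 different start positions. The sequences below are the 250 bases before the RefSeq start of the 4 members other than Slc12a1 that the cortical ratios turn on, 5′ to 3′ on the gene's strand, from GRCm38.p6. Capitals mark GC boxes, the letters GGGCGG or CCGCCC on either strand, which are the words bound by Sp1-type factors and were present in 32.7% of 32817 promoters.
Wnk1: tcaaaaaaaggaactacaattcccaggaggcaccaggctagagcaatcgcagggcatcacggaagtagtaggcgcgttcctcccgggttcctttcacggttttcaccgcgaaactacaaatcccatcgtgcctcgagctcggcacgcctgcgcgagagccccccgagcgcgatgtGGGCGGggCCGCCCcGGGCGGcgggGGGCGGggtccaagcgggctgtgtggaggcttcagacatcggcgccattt
Wnk4: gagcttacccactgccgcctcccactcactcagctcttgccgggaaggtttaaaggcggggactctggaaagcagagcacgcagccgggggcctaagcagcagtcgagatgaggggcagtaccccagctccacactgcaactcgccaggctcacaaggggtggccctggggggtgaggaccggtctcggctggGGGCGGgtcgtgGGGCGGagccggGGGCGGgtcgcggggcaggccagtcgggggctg
Stk39: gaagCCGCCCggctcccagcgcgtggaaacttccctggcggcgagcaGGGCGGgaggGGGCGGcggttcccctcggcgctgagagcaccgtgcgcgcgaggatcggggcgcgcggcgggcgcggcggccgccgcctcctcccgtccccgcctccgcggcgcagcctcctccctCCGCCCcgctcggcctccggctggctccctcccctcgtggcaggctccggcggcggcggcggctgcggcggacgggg
Klhl3: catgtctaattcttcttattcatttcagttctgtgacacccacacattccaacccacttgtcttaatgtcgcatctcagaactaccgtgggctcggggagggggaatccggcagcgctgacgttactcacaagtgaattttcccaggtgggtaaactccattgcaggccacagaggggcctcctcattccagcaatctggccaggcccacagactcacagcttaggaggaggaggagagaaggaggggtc
The Wnk1 window (chr6:120038656-120038905, minus strand) held 4 GC boxes, the Wnk4 window (chr11:101260317-101260566, plus strand) 3, the Stk39 window (chr2:68471982-68472231, minus strand) 4 and the Klhl3 window (chr13:58113648-58113897, minus strand) 0. None of the 4 held a CCAAT box (CCAAT or ATTGG), which was present in 33.8% of promoters. The Wnk1 window precedes the start of the long form, not that of the kidney-specific form.

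Wnk1, the WNK kinase with the widest expression, differed most between TAL-α and TAL-β among the members. In cortex it stood at 879 CPM in TAL-α (95% interval 858 to 900), 2312 CPM in TAL-β (2270 to 2354), 1731 CPM in nuclei over the TAL-γ threshold and 1258 CPM in MD (1204 to 1314). In medulla it stood at 495 CPM in TAL-α (481 to 509), 2547 CPM in TAL-β (2472 to 2623), 457 CPM in TAL-γ (444 to 472) and 1156 CPM in MD (999 to 1332). TAL-β was the highest TAL class in both libraries, MD lay between, and TAL-α and medullary TAL-γ were lowest. The TAL-β to TAL-α ratio was 2.63 in cortex (2.55 to 2.71) and 5.15 in medulla (4.94 to 5.37). Of all genes tested, 99.3% in cortex and 99.7% in medulla had a lower ratio than Wnk1.

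Across these 2 comparisons, 7 of the 8 members other than Slc12a1 had enough counts to be read, which was at least 50 over both classes. In cortex 1 of the 7 (Wnk1) was higher in TAL-β and 2 (Wnk4 and Stk39) were lower, where 5.10% of all genes were higher by the fold, 4.33% lower and 9.43% either. In medulla 1 (Wnk1) was higher and 1 (Stk39) lower, where 6.82% of genes were higher, 8.10% lower and 14.9% either. At 2-fold the count was 1 (Wnk1) in each library, where 2.99% and 4.89% of genes were past it. The study had already reported, from these libraries, more Wnk1 in TAL-β and more Wnk4 and Stk39 in TAL-α and TAL-γ. These counts are therefore not an independent result.

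**Figure D1:**
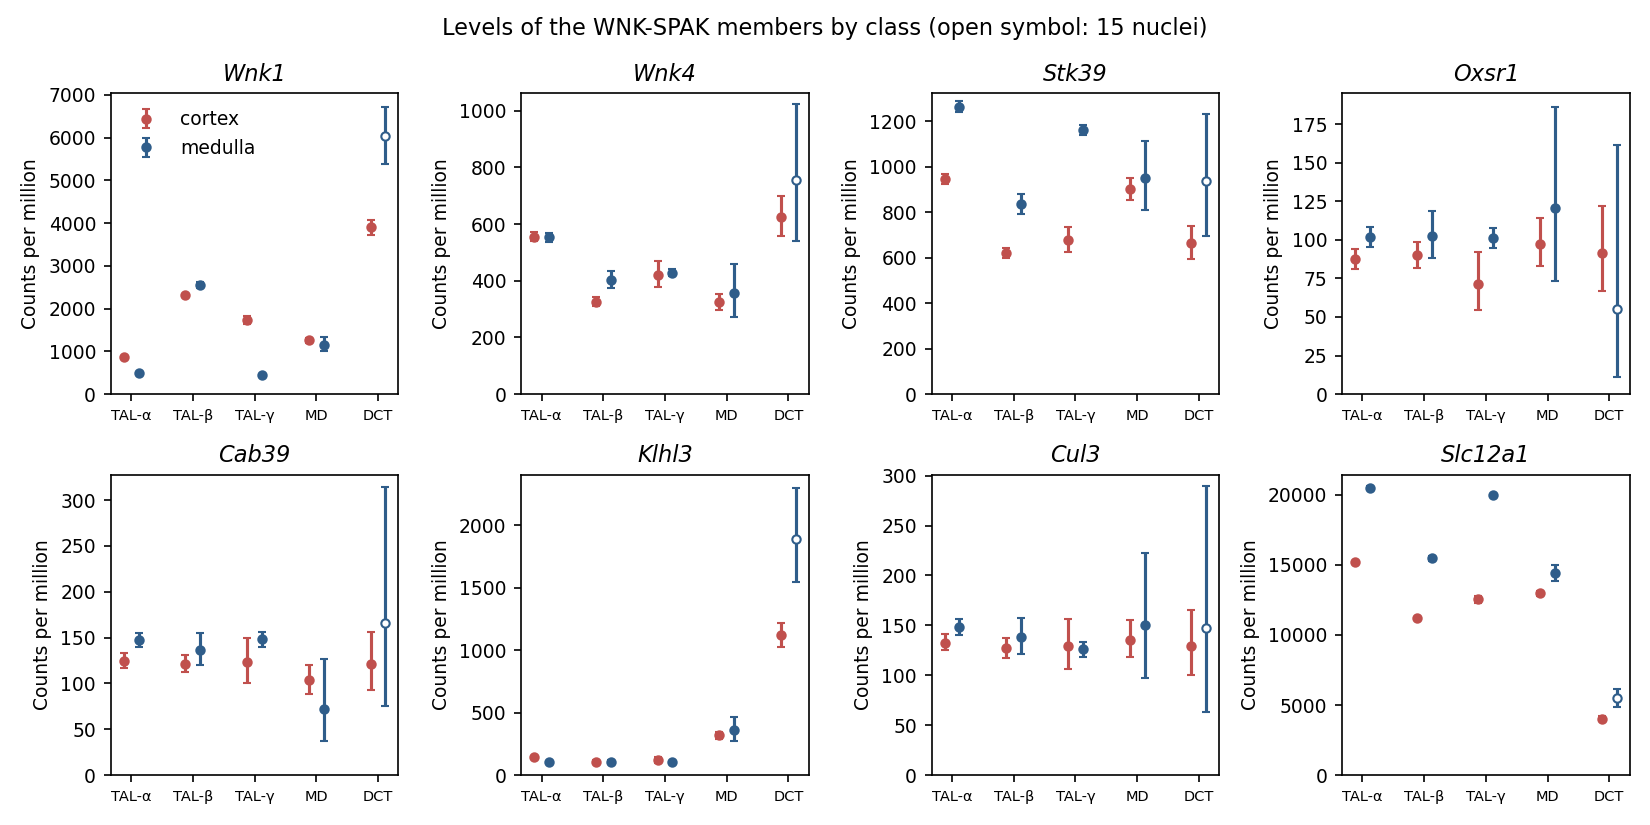
Level in CPM (vertical axes, from 0) of 8 members in the 5 classes (horizontal axes), with cortex in red and medulla in blue. Points are the summed counts of a class in 1 library and bars are 95% Poisson intervals that cover counting error only, with open points for the 15 medullary DCT nuclei. Wnk1 is highest in TAL-β among TAL classes, Klhl3 is raised in MD and DCT, and Oxsr1 and Cul3 are nearly level.

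The difference in Wnk1 was one of distribution over nuclei as well as of mean. In cortical TAL-α, 28.5% of nuclei had no Wnk1 count and 7.07% had 8 or more, and in cortical TAL-β 4.72% had none and 43.5% had 8 or more. In medulla 45.6% of TAL-α nuclei had none and 2.04% had 8 or more, and in TAL-β 12.9% had none and 41.3% had 8 or more. Medullary TAL-γ was close to medullary TAL-α, with 48.2% and 2.40%.

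**Figure D2:**
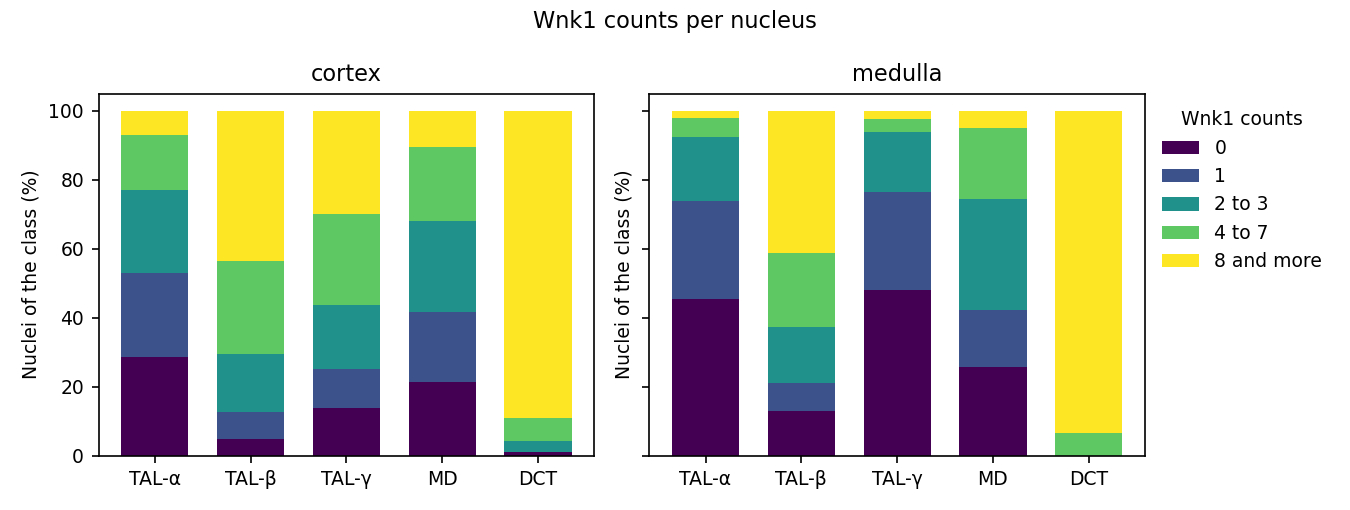
Share of nuclei of each class, in percent (vertical axis), by the number of Wnk1 counts in the nucleus (colours), in cortex (left) and medulla (right). Nuclei with 8 or more Wnk1 counts make up 43.5% of cortical TAL-β and 7.07% of cortical TAL-α, and most of DCT.

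At a common depth of 1000 counts, the share of nuclei expected to hold a Wnk1 count was 47.0% in cortical TAL-α, 80.2% in TAL-β and 61.0% in MD, and 31.7%, 73.0% and 58.1% in medulla. Unthinned, the cortical shares were 71.5%, 95.3% and 78.6%. Proximal tubule-like barcodes, with at least 10 counts of the proximal tubule list and at most 2 of Slc12a1, held a Wnk1 count in 74.1% of 85 cases in cortex, at a median of 3436 counts, and their Wnk1 level was 559 CPM. Proximal tubule may itself transcribe Wnk1, so this is not a pure background, and the mere presence of a Wnk1 count in TAL-α is not read as expression. For Wnk4 and Stk39 the same barcodes stood at 105 and 87.7 CPM in cortex, below every TAL class. Free RNA, read in uncalled barcodes of 10 to 100 counts, was not low in the members. It held Wnk4 at 579 CPM in cortex (546 to 614) and 722 CPM in medulla (672 to 775), at or above the level in every TAL class. It held Wnk1 at 1281 and 552 CPM, Stk39 at 553 and 877 CPM and Klhl3 at 144 and 96.2 CPM. Slc12a1 was at 13321 CPM in cortical free RNA and 21640 CPM in medullary, against 13531 and 19802 CPM over all TAL nuclei. A level in free RNA near that of the nuclei was thus not particular to Wnk4. The level of Wnk4 in a class is therefore not read against 0, and the part of free RNA in the members' levels is bounded only by the subtraction given with the alternatives.

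Wnk1 was followed along the counts of Tmem52b, the gene that sets the TAL-β class, over all TAL nuclei other than MD. In cortex it rose from 776 CPM at 0 counts of Tmem52b to 2007 CPM at 1 count and 2323 CPM at 2 counts, and was between 2196 and 2433 CPM above that. In medulla it rose from 430 CPM at 0 to 1273 CPM at 1, 2164 CPM at 2 and 3071 CPM at 6 or more. The 421 cortical nuclei with 1 count, which the rule leaves outside TAL-β, thus had a Wnk1 level close to that of the class, and in cortex the level formed a step and not a slope. Wnk4 ran the other way, from 564 CPM at 0 to 414 CPM at 1 and 302 CPM at 6 or more in cortex, and from 496 CPM at 0 to 403 CPM at 6 or more in medulla. Stk39 fell from 967 to 591 CPM in cortex and from 1229 to 766 CPM in medulla between the same ends.

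**Figure D3:**
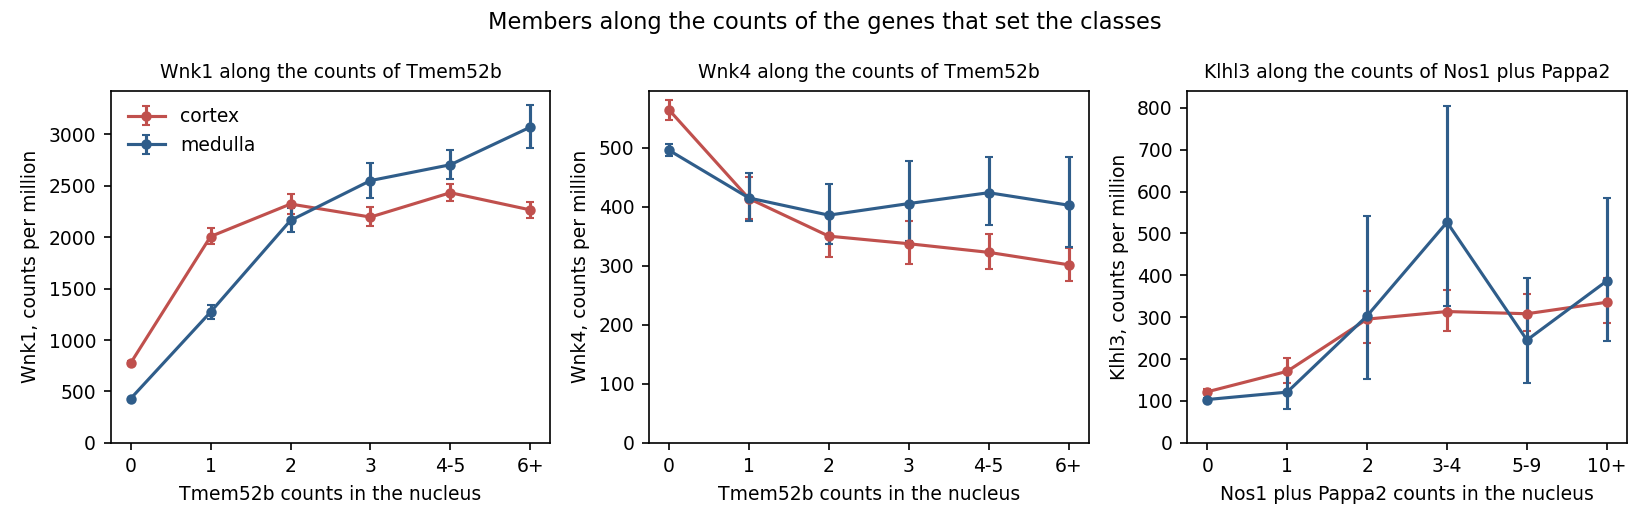
Level in CPM (vertical axes, from 0) of Wnk1 and Wnk4 in nuclei grouped by their Tmem52b counts, and of Klhl3 in nuclei grouped by their Nos1 plus Pappa2 counts (horizontal axes), with 95% Poisson intervals. Wnk1 steps up from 776 to 2007 CPM between 0 and 1 Tmem52b counts in cortex, and Klhl3 from 171 to 295 CPM between 1 and 2 Nos1 plus Pappa2 counts.

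TAL-α nuclei with many Wnk1 counts also carried TAL-β markers. In cortex 199 TAL-α nuclei had 8 or more Wnk1 counts, and 92 of them held exactly 1 Tmem52b count. In those 199 nuclei Kcnj10, the Kir4.1 potassium channel, stood at 84.7 CPM and Pth1r, the parathyroid hormone receptor, at 446 CPM, against 9.39 and 258 CPM in the 1492 nuclei with 0 or 1 Wnk1 count. Cldn10, the sodium-selective claudin of TAL-α, stood at 151 CPM against 226 CPM. Wnk4 stood at 377 against 619 CPM and Stk39 at 709 against 1075 CPM. Proximal tubule genes were higher as well, with Slc34a1 at 1149 against 705 CPM and Lrp2 at 493 against 268 CPM. The 77 such nuclei in medullary TAL-α had Kcnj10 at 63.6 against 11.2 CPM and Pth1r at 352 against 56.3 CPM. Their Slc34a1 level was 78.3 against 62.2 CPM, with overlapping intervals. The 1122 cortical TAL-α nuclei with 2 to 7 Wnk1 counts held Kcnj10 at 14.5, Pth1r at 315 and Cldn10 at 220 CPM. Their Slc34a1 level was 1337 CPM, and that of the 915 medullary ones was 359 CPM. These nuclei were picked by their Wnk1 counts, so the values are a description, and they lay within the TAL-α class of the ratios above. The median depth was 2544 counts in the 199 Wnk1-rich cortical nuclei and 2342 in those with 0 or 1 Wnk1 count.

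Wnk4, the WNK kinase most studied as an activator of NCC and NKCC2, was lower in TAL-β than in TAL-α. In cortex it stood at 555 CPM in TAL-α (538 to 571), 325 CPM in TAL-β (309 to 341), 422 CPM in nuclei over the TAL-γ threshold and 325 CPM in MD. In medulla it stood at 552 CPM in TAL-α, 404 CPM in TAL-β (374 to 435), 428 CPM in TAL-γ (415 to 442) and 355 CPM in MD (271 to 458). TAL-α was highest in both libraries, while TAL-β and MD in cortex, and TAL-β, TAL-γ and MD in medulla, did not differ beyond their intervals. The TAL-α to TAL-β ratio was 1.71 in cortex (1.61 to 1.81) and 1.37 in medulla (1.26 to 1.48), the latter within 1.5-fold.

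From TAL-α to TAL-β, Wnk1 and Wnk4 moved in opposite directions, Wnk1 by more, and their proportion shifted widely. This did not hold for every class. Both were lower in medullary TAL-γ than in TAL-α, and both were higher in cortical DCT than in all TAL nuclei. Wnk4 made up 38.7% of the summed Wnk1 and Wnk4 counts in cortical TAL-α (37.8% to 39.6%) and 12.3% in TAL-β (11.8% to 12.9%). In medulla it made up 52.8% in TAL-α, 48.4% in TAL-γ and 13.7% in TAL-β. MD lay between with 20.5% in cortex and 23.5% in medulla, and DCT had 13.8% and 11.1%. The proportion is of counts and not corrected for gene length, so only its change from class to class is read. Free RNA held Wnk4 and Wnk1 at 579 and 1281 CPM in cortex and at 722 and 552 CPM in medulla. Wnk4 was thus the lower of the pair in cortex and the higher in medulla, the same order as in TAL-α. The part of free RNA in these proportions was not tested. The 2 transcripts were not exclusive in single nuclei. Both were found in 50.7% of cortical TAL-α nuclei, against 51.5% for the product of the single shares.

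Wnk3, a WNK kinase known mainly from brain, was close to absent. Over all classes at most 20 of its counts were found in 1 class and library, and no comparison reached 50 counts. It stood at 2.27 CPM in cortical TAL-α on 18 counts and at 1.92 CPM in medullary TAL-α on 18 counts. In the 92 cortical DCT nuclei it had 0 counts, where the floor of 3 counts is 6.08 CPM. No ratio of Wnk3 is read.

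SPAK (Stk39), which like OSR1 acts directly on NKCC2, was highest in TAL-α in each library. In cortex it stood at 948 CPM in TAL-α (927 to 970), 620 CPM in TAL-β (598 to 642), 679 CPM in nuclei over the TAL-γ threshold and 902 CPM in MD (856 to 949). In medulla it stood at 1265 CPM in TAL-α (1243 to 1288), 835 CPM in TAL-β (793 to 880), 1162 CPM in TAL-γ (1140 to 1184) and 952 CPM in MD (809 to 1112). MD did not differ from TAL-α in cortex beyond its interval. The TAL-α to TAL-β ratio was 1.53 in cortex (1.47 to 1.59) and 1.51 in medulla (1.43 to 1.60), so nearly equal in the 2 libraries although the levels were not. Both ratios lay close to the 1.5-fold line, and without nuclei carrying markers of other cell types they were 1.48 and 1.49.

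OSR1 (Oxsr1), the close relative of SPAK, was present at far fewer counts and was nearly level. It ranged from 71.5 to 97.5 CPM over the cortical TAL classes and from 101 to 120 CPM over the medullary ones. Its TAL-β to TAL-α ratio was 1.03 in cortex (0.913 to 1.16) and 1.01 in medulla (0.855 to 1.19). Proximal tubule-like barcodes held it at 87.7 CPM (cortex) and 83.1 CPM (medulla). The level in TAL nuclei thus did not stand out from those barcodes, which, as for Wnk1, are not a pure background. Free RNA held Oxsr1 at 58.6 CPM in cortex (48.3 to 70.4) and 77.4 CPM in medulla (61.5 to 96.0), below the TAL classes. MO25 (Cab39) had TAL-β to TAL-α ratios of 0.973 (0.878 to 1.08) and 0.928 (0.805 to 1.07), with levels from 104 to 125 CPM in the cortical TAL classes. In medullary MD nuclei it stood at 72.3 CPM on 12 counts (37.3 to 126).

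KLHL3 and CUL3 separated in the macula densa. Klhl3 stood at 142 CPM in cortical TAL-α (134 to 151), 108 CPM in TAL-β (99.2 to 118), 119 CPM in nuclei over the TAL-γ threshold and 318 CPM in MD (291 to 347). In medulla it stood at 105 CPM in TAL-α, 104 CPM in TAL-β, 103 CPM in TAL-γ and 361 CPM in MD (276 to 465). MD was highest in both libraries and its interval overlapped that of no other TAL class. Proximal tubule-like barcodes held 113 CPM in cortex and 62.3 CPM in medulla, so that cortical TAL-β did not exceed them. Cul3, the ligase's scaffold, was between 127 and 136 CPM in every cortical TAL class and between 126 and 151 CPM in every medullary one.

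The MD ratio against TAL-α and TAL-β together was 2.46 for Klhl3 in cortex (2.23 to 2.72) and 3.46 in medulla (2.62 to 4.48). Klhl3 was the 1 of 7 members past the fold in cortex, in the higher direction, where 12.7% of all genes were past the fold upward, 15.2% downward and 28.0% either way. In medulla Klhl3 was higher and Cab39 lower, where 30.2% of genes were past the fold upward, 20.3% downward and 50.5% either way, with 78 MD nuclei and a median log2 ratio of all genes of 0.16. A share of 2 of 7 is no more than that background. Wnk4 was at 0.697 in cortex (0.636 to 0.762) and 0.671 in medulla (0.510 to 0.867), within the fold. Klhl3 rose along the counts of Nos1 plus Pappa2 in cortex from 122 CPM at 0 to 171 CPM at 1, 295 CPM at 2 and 336 CPM at 10 or more. The 132 nuclei with 2 counts, just outside the MD class, had nearly the level of the class.

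MD and DCT share a high Klhl3 level, so the DCT markers were read in MD nuclei. Slc12a3 stood at 8.03 CPM in cortical MD nuclei, against 6.44 CPM in TAL-α and 7923 CPM in DCT. That gap was set by the rule, which counted every nucleus with at least 5 Slc12a3 counts as DCT. In cortex 4 nuclei over the MD threshold were moved in this way, so Slc12a3 is not read as a contrast. The other DCT markers were not used by the rule. Trpm6, the magnesium channel of the DCT, stood at 31.5 CPM in MD on 51 counts, against 5.05 CPM in TAL-α and 1022 CPM in DCT. Pvalb had 0 counts in MD. The list of 4 DCT genes (Trpm6, Pvalb, Calb1, Slc8a1) summed to 134 CPM in MD, against 86.5 CPM in TAL-α, 226 CPM in TAL-β and 10169 CPM in DCT.

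The DCT, where NCC and not NKCC2 is the target of the pathway, gave a contrast within the same library. In cortex the 92 nuclei held Wnk1 at 3899 CPM (3727 to 4078), Wnk4 at 625 CPM (557 to 698), Stk39 at 663 CPM (593 to 739) and Klhl3 at 1119 CPM (1028 to 1217). The ratio to all TAL nuclei was 2.73 for Wnk1 (2.60 to 2.86) and 7.54 for Klhl3 (6.86 to 8.28). These were the 2 of 7 members past the fold, both higher, where 17.5% of genes were past the fold upward. Against TAL-β alone Wnk1 was at 1.69 (1.61 to 1.77), Wnk4 at 1.92 (1.70 to 2.17) and Klhl3 at 10.4 (9.18 to 11.7), which made 3 of 7 members higher where 12.9% of genes were. Stk39 was at 1.07 (0.951 to 1.20), and the interval of Oxsr1, Cab39 and Cul3 ratios held 1 in each case.

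As a description, the DCT nuclei were split by their Slc12a1 counts. Of the 92 nuclei, 45 had fewer than 10 Slc12a1 counts and 47 had 10 or more. The 45 held Wnk1 at 5381 CPM, Klhl3 at 1866 CPM and Trpm6 at 1483 CPM at a median depth of 2523 counts. The 47 held Wnk1 at 3211 CPM and Klhl3 at 772 CPM at a median depth of 4525 counts. Both parts stood above every TAL class for Wnk1 and Klhl3, and the deeper one, which also held NKCC2 counts, was the lower of the pair. With the doublets called by Scrublet removed, 85 of the 92 remained. In medulla 15 nuclei held Wnk1 at 6030 CPM on 328 counts and Klhl3 at 1894 CPM on 103 counts, too few to set beside the cortical values.

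**Figure D4:**
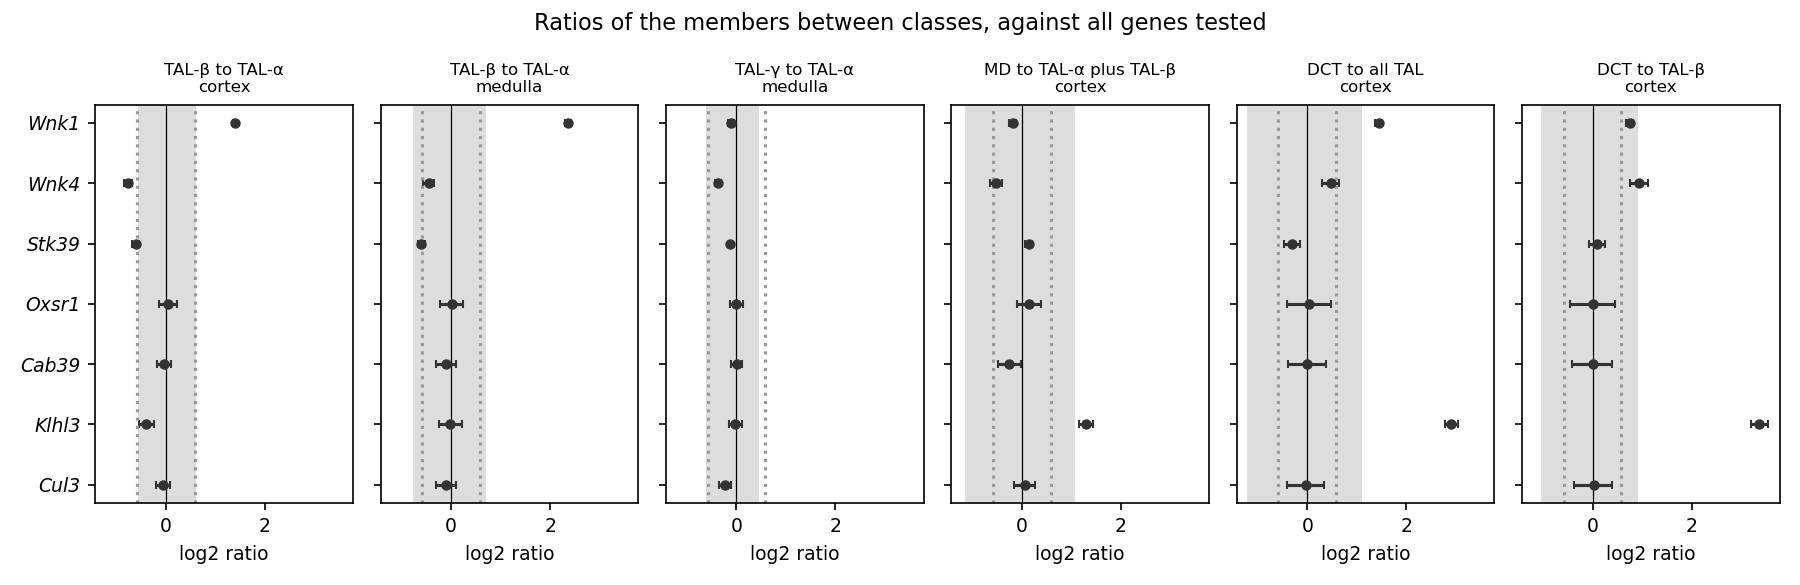
Log2 ratio of 7 members between classes (horizontal axes) for 6 comparisons, with 95% intervals that cover counting error only. The grey band spans the 5th to 95th percentile of all genes tested, and dotted lines mark 1.5-fold in each direction. Wnk1 lies beyond the band in TAL-β over TAL-α in both libraries and in DCT over all TAL, and Klhl3 in cortical MD and in DCT. Wnk4 and Stk39 lie beyond it in cortical TAL-β over TAL-α, and Wnk4 also in DCT over TAL-β.

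Between libraries the members did not pass the fold more often than genes at large. Within TAL-α the medulla to cortex ratio was 0.563 for Wnk1 (0.542 to 0.584), 0.996 for Wnk4 (0.957 to 1.04) and 1.34 for Stk39 (1.30 to 1.37). Wnk1 was the 1 of 7 members past the fold, where 16.6% of genes were lower in medulla by it. Of all genes tested, 11.2% had a lower ratio than Wnk1 and 91.1% a lower ratio than Stk39. Both lay within the 5th to 95th percentile of all genes, 0.355 to 1.49. Within TAL-β Wnk1 was at 1.10 (1.06 to 1.14) and Stk39 at 1.35 (1.26 to 1.43), and 0 of 7 members were past the fold, where 19.3% of genes were in either direction. Within MD the intervals of all 7 members held 1, and 26.2% of genes were past the fold. In nuclei over the TAL-γ threshold Wnk1 was at 0.264 (0.249 to 0.281) and Stk39 at 1.71 (1.57 to 1.87), with 31.2% of genes past the fold. These nuclei carried TAL-β markers in cortex as given above. With ambient RNA subtracted the Stk39 ratio turned to 0.671, after 91.6% of counts were taken from the cortical nuclei.

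Among TAL-α nuclei with 0 or 1 Wnk1 count, 3 of the 4 genes of the TAL-β list were also lower in medulla. Pth1r stood at 56.3 CPM in medulla and 258 CPM in cortex, Cldn16 at 51.0 and 96.0 CPM and Casr at 516 and 821 CPM, while Kcnj10 stood at 11.2 and 9.39 CPM with overlapping intervals. Proximal tubule-like barcodes, too, held less Wnk1 in medulla, 272 against 559 CPM. With stricter thresholds for the classes the TAL-α ratio of Wnk1 was 0.674, within 1.5-fold, and with ambient RNA subtracted at its upper limit it turned to 5.60. The latter value divides by the little Wnk1 left in cortical TAL-α after the subtraction. The relation of Wnk1 to the regions was not tested beyond these values.

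Medullary TAL-γ, the Kir4.1-positive and claudin 10-positive TAL class, was set beside its neighbours in the same library. Against TAL-α, 0 of 7 members were past the fold, where 7.80% of genes were. Wnk1 was at 0.925 (0.887 to 0.965), Wnk4 at 0.775 (0.744 to 0.808) and Stk39 at 0.918 (0.894 to 0.943). Against TAL-β, Wnk1 was at 0.180 (0.172 to 0.187), the 1 of 7 members past the fold, where 9.56% of genes were lower by it, Stk39 was at 1.39 (1.32 to 1.47) and Wnk4 at 1.06 (0.978 to 1.15).

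NKCC2 (Slc12a1), the target of the pathway, gated the nuclei, so its level and the levels of other members along its counts are descriptions only. It stood at 15212 CPM in cortical TAL-α, 11207 CPM in TAL-β, 12553 CPM in nuclei over the TAL-γ threshold and 12965 CPM in MD. In medulla it stood at 20514, 15469, 19989 and 14408 CPM. Just outside the gate, the 30 cortical nuclei with 8 or 9 Slc12a1 counts held Wnk1 at 2157 CPM and Wnk4 at 241 CPM. Just inside it, the 44 TAL nuclei with 10 or 11, which leave out 1 such nucleus counted as DCT, held 1337 and 263 CPM. Among gated cortical nuclei Wnk1 went from 1685 CPM at 10 to 19 Slc12a1 counts to 1217 CPM at 40 or more, and Wnk4 from 287 to 510 CPM, while the median depth rose from 1827 to 2831.5 counts.

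A list of 33 other genes of the pathway was read the same way. From TAL-α to TAL-β in cortex, 0 of 33 were higher and 1 was lower, with a median log2 ratio of 0.08 against 0.01 for all genes, and in medulla 1 of 32 was higher (Sgk1, on 15 counts in TAL-β) and 1 lower. The background was 5.10% of genes higher and 4.33% lower in cortex, and 6.82% and 8.10% in medulla, so the list did not move more than genes at large. The gene lower in both was Stk26, a kinase that also binds MO25, at 11.4 CPM in cortical TAL-β against 17.7 CPM in TAL-α and at 3.48 CPM on 6 counts against 10.8 CPM in medulla. In MD, 1 of 33 was higher and 4 lower in cortex, against 12.7% and 15.2% of all genes. In medullary MD 3 of 32 were higher and 6 lower, against 30.2% and 20.3% of all genes. Stk26 was higher in MD in both libraries, at 4.04 (3.15 to 5.17) in cortex and 4.38 (1.72 to 9.33) on 7 counts in medulla. Nedd4l, a ubiquitin ligase that acts on sodium channels and transporters, was lower in both, at 698 CPM in MD against 1211 CPM in cortex and 717 against 1155 CPM in medulla.

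Over 9 points of class and library with at least 50 nuclei, the genes most like each member were found by Pearson correlation of log2(CPM + 10) among 11001 genes. For Wnk1 they were Plxna2 (r = 0.97), Cadps2 (0.95) and Pelo (0.95), for Wnk4 Nfs1 (0.93), Zfpm1 (0.90) and Gm2115 (0.87), for Stk39 Gm31793 (0.95), Zfp618 (0.94) and Epb41l4a (0.93), and for Klhl3 Ptbp3 (0.99), Pcdhgb4 (0.98) and Acad12 (0.96). The points share 2 libraries, so these values are descriptions.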

How the data were processed

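Nuclei sorted for GFP from dissected cortex and medulla, 1 library each, were measured by PIPseq single-nucleus RNA sequencing. The authors aligned reads to GRCm39 and counted with PIPseeker. The deposited tables give raw counts, not normalized, for each gene and barcode, and precede the authors' doublet removal and ambient RNA correction. The release of the annotation and the use of strand in counting are not given in the sources used here. Deposited cluster numbers and map coordinates were not used.

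The members, gene lists, classes and comparisons were chosen with earlier results of these data known. All calculations used the filtered matrices (16457300 counts in cortex, 20947211 in medulla) in Python 3.11.15 (scipy 1.17.1, pandas 2.3.3, numpy 2.4.6). Counts were summed per class and library and divided by the class total. Levels have exact Poisson intervals, shares exact binomial (Clopper-Pearson) ones, and ratios intervals from the binomial split of both counts. They cover counting error only. No p-value was computed, since 1 library per region leaves no replicate and nuclei are not replicates. Genes with at least 50 counts over both classes formed the background of each ratio, and a gene with 0 counts in a class was set to a floor of 3 counts. Genes of the pathway list were named when past 1.5-fold the same way in both libraries. The ratio step was tested on simulated counts with known folds.

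Doublets were not removed from the main values. For an alternative, Scrublet in scanpy 1.11.5 was run per library. Its automatic threshold called 338 barcodes in cortex (6.21%) but 2 in medulla (0.0246%), so the 5% with the highest scores (406) were taken there. Barcodes with at least 5 Slc12a3 counts and at least 10 Slc12a1 counts (47 in cortex, 6 in medulla) were counted as DCT. In the raw matrices the libraries shared 6850 barcodes.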

Additional observations from a re-analysis of the deposited data

Results flagged for a closer look

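Of the ratios, 3 went opposite ways in the 2 libraries with counting intervals away from 1, and the difference between libraries was not tested. Wnk1 in nuclei over the TAL-γ threshold against TAL-α was at 1.97 in cortex (1.86 to 2.09) and at 0.925 in medulla (0.887 to 0.965). The cortical nuclei carried TAL-β markers, with the TAL-β list at 1900 CPM against 659 CPM in medullary TAL-γ.

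Wnk1 in MD against TAL-α plus TAL-β was at 0.878 in cortex (0.839 to 0.919) and at 1.42 in medulla (1.23 to 1.64), and with stricter class thresholds the cortical ratio was 1.02. Stk39 in the same comparison was at 1.10 in cortex (1.04 to 1.16) and at 0.794 in medulla (0.674 to 0.929). The reference differed in make-up, since TAL-β made up 34.2% of the TAL-α and TAL-β nuclei in cortex and 13.0% in medulla. It differed in level as well. The medulla to cortex ratio of Stk39 was 1.34 in TAL-α and 1.35 in TAL-β. That of Wnk1 was 0.563 in TAL-α and 1.10 in TAL-β. The part of make-up and of level in the opposite ratios was not tested. Within MD itself the cortical and medullary levels were 1258 and 1156 CPM for Wnk1, and 902 and 952 CPM for Stk39, with overlapping intervals.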

How the results depend on the processing

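No paired analysis was possible because each region has 1 library and the labels give no replicate numbers. Of the 21 member ratios past 1.5-fold, 21 remained past it with doublets removed and 17 without barcodes carrying other cell types' markers. With stricter thresholds 18 of 19 remained, and with equal weight per nucleus 19. The quality filter kept all 21, but it only took medullary TAL-α from 3775 to 3774 nuclei, so it could hardly move a ratio. With ambient RNA subtracted 10 of 12 remained. That subtraction gave 75 ratios, of which 54 moved beyond their interval and 2 past the fold reversed. The 21 include ratios of Slc12a1, which gates the nuclei, so these are descriptions only. They were DCT to all TAL (0.298), DCT to TAL-β (0.360) and medulla to cortex in TAL-γ (1.59).

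The TAL-β to TAL-α ratio of Wnk1 in cortex was 2.88 with doublets removed, 2.95 without other cell types, 3.57 with stricter thresholds and 2.77 with equal weight per nucleus. Combining the first 3 with the quality filter, an alternative chosen after seeing the data, gave 4.20 in cortex and 6.90 in medulla, where stricter thresholds gave 6.34. The TAL-α to TAL-β ratio of Wnk4 in cortex was 1.83 with doublets removed, 1.91 with stricter thresholds and 1.99 with the combination, and that of Stk39 was 1.60 with stricter thresholds. The Wnk4 ratio was 1.67 without other cell types. With DCT barcodes of at least 10 Slc12a1 counts kept in the TAL classes it was 1.65. The Stk39 ratio lay below 1.5 without other cell types (1.48 and 1.49), in cortex with equal weight per nucleus and in medulla when scaled to the median gene. The MD ratio of Klhl3 in cortex was 2.75 with doublets removed, 3.20 with the combination and 2.94 against TAL-β alone, also chosen after seeing the data. It was lower, at 2.23, against TAL-α alone, likewise chosen after seeing the data. With DCT barcodes of at least 10 Slc12a1 counts kept in the TAL and MD classes it was 2.25. The DCT to TAL-β ratio of Wnk1 was 2.11 without other cell types, 2.00 with the combination, 2.29 with DCT limited to under 10 Slc12a1 counts and 2.07 with equal weight per nucleus. It was 1.63 with doublets removed, 1.66 with stricter thresholds and 1.65 when scaled to the median gene.

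Subtracting ambient RNA at the upper limit set by proximal tubule genes took 66.5% of counts from cortical TAL-α and 79.9% from TAL-β, since every proximal tubule count was taken as ambient. It gave 81.0 and 17.1 for Wnk1, 1.95 and 2.20 for Stk39 (cortex and medulla) and 4.57 for Klhl3 in MD, no value for Wnk4, and none for cortical DCT, where the share passed 100%. It reversed the medulla to cortex ratio of Wnk1 in TAL-α (5.60) and of Stk39 in TAL-γ (0.671). Free RNA held Wnk1 at 1281 CPM in cortex against 879 CPM in cortical TAL-α, so little Wnk1 was left there. Both the 81.0 and the 5.60 divide by that small remainder. For the Stk39 ratio, 91.6% of counts were taken from the cortical nuclei over the TAL-γ threshold and 43.1% from medullary TAL-γ. The true share of ambient RNA was not tested. At 2-fold, the members past the fold in TAL-β over TAL-α were 1 in each library in place of 3 and 2. With no minimum of counts, those in cortical MD were 2 in place of 1. In the 78 medullary MD nuclei Wnk3, Oxsr1 and Cab39 rested on 1, 20 and 12 counts.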
